A study of Mus musculus with 62 samples.

Results

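The acute phase response was followed through 10 genes in the livers of female mice given polychlorinated biphenyls (PCBs) by mouth. The 10 genes were chosen by name and found by their mouse Entrez identifiers: Saa1, Saa2, Hp, Orm1, Orm2, Lcn2, Fgb, Apcs, Hamp and Stat3. All 10 were among the 16206 genes listed for liver, and all 10 passed the filter on low counts that left 12968 genes for testing. The study sequenced RNA from liver, prefrontal cortex and striatum of female C57BL/6 mice after oral exposure to a PCB blend that its labels call the MARBLES mixture. The liver groups were vehicle (4 mice), 0.1 mg/kg (4 mice), 1 mg/kg (6 mice) and 6 mg/kg (6 mice), 20 libraries in all. Each library title carries its own animal number within the tissue, and no genotype other than the strain was named. The age of the mice, the length of exposure, the time of day at collection and the composition of the vehicle were not given in the sources used here. All mice were of 1 sex and 1 strain, so the values describe female C57BL/6 liver alone.

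The acute phase response is the change in plasma proteins that the liver secretes after infection or injury. Interleukin 6 from activated macrophages binds its receptor and gp130 on hepatocytes, JAK kinases phosphorylate STAT3, and STAT3 together with C/EBP factors and NF-kB raises transcription of serum amyloid A, haptoglobin, orosomucoid, lipocalin 2, fibrinogen and hepcidin. In the mouse the pentraxin serum amyloid P component, encoded by Apcs, is a major acute phase reactant, whereas C-reactive protein, encoded by Crp, responds only weakly. SOCS3 is induced by STAT3 and shuts the receptor off again.

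The sequence upstream of a gene shows which of these factors have a recognisable motif there. RefSeq promoter sequences, build GRCm38.p6, were matched for 8 of the 10 members, all but Hp and Orm1, and the 250 bases before the start site were searched on both strands. The STAT motif TTCNNNGAA was present in 7.04% of 32526 promoters of the same length, the C/EBP motif TTGCNNAA in 9.57%, the NF-kB motif GGANTTTCC in 1.07% and the BMP response element GGCGCC in 9.65%. No overlap between motifs was found in the members. The TATA motif TATAAA was present in 12.3%. The promoters shown are of 6 members with a match, among them Apcs and Fgb, whose log2 differences at the highest dose were the most negative. Capitals mark the STAT, C/EBP and BMP element matches, and each sequence runs 5′ to 3′ on the strand of its gene.
Saa2 (chr7:46751583-46751832, plus strand): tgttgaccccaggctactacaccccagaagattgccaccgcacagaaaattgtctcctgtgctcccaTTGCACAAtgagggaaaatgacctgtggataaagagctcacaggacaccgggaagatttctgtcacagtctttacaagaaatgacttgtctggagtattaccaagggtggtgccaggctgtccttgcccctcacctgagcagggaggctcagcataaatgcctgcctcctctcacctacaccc
Orm2 (chr4:63362199-63362448, plus strand): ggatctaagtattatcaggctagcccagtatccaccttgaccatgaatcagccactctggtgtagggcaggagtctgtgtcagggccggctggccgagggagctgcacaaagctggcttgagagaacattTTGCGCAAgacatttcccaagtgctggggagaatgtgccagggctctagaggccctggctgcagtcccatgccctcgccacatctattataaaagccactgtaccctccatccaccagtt
Lcn2 (chr2:32387740-32387989, minus strand): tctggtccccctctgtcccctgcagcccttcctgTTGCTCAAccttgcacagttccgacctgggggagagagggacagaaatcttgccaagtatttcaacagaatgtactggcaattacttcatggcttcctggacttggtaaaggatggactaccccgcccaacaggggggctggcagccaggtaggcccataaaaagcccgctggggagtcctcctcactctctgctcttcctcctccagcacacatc
Fgb (chr3:83049864-83050113, minus strand): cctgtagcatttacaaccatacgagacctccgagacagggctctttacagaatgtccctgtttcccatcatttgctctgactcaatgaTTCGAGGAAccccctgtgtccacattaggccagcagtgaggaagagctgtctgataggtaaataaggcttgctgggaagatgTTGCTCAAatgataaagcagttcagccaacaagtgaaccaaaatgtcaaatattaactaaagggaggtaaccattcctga
Apcs (chr1:172895055-172895304, minus strand): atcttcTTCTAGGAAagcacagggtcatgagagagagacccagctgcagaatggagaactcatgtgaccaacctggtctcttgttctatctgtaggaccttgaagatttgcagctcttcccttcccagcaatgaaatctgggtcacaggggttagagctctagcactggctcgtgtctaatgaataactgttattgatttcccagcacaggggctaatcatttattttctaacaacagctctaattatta
Hamp (chr7:30944030-30944279, minus strand): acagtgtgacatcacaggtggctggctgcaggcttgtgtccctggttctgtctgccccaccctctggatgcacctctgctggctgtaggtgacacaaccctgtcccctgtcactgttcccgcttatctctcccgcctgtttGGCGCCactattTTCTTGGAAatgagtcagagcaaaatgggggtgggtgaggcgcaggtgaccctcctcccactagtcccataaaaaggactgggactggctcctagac

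The C/EBP match lay 183 to 176 bases before the start of Saa2, 120 to 113 before Orm2, 216 to 209 before Lcn2 and 80 to 73 before Fgb. Saa1, whose window was 95.6% identical to that of Saa2 over 249 aligned bases, held the same match 182 to 175 bases before its start. The STAT match lay 162 to 154 bases before Fgb, 244 to 236 before Apcs and 97 to 89 before Hamp. The Hamp window also held the BMP element 109 to 104 bases before the start. TATAAA stood 33 to 28 bases before Orm2. The NF-kB motif in the form GGANTTTCC was found in none of the 8 windows, and other forms of that site were not searched. The Stat3 window held none of the motifs searched. A match only says that these letters stand in this window.

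Liver libraries held 7381179 to 10203247 counts, and the 10 members together took 0.742% to 1.34% of them. Levels are given in CPM, the usual depth-corrected unit of read counts, with library totals corrected by TMM (trimmed mean of M values) factors. Hepatocyte markers were abundant in every library, with a summed level of 82920 to 184600 CPM over 10 of 10 genes. Of 14 neutrophil markers, 8 were listed and 3 were tested, and their sum ran from 1.21 to 15.1 CPM; Ngp, Camp, Ltf, Mmp8, Mpo and Ly6g were not analysed here. Red cell genes differed widely between mice, from 44.1 to 3067 CPM over 3 of 7 genes. Their sum had a median of 617 CPM in vehicle (47.8 to 3067) and 155.6 CPM at 6 mg/kg (69.3 to 229.5). At 6 mg/kg against vehicle 0 of the 3 passed in edgeR (adjusted p under 0.05). Hbb-bt passed as lower in DESeq2 (log2 difference -3.89, adjusted p = 0.0183), where 1138 of 12968 genes passed. Markers of brain cells summed to 107.7 to 238.1 CPM, most of it Slc1a2, which liver also expresses.

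Animals 55 and 56 of the 6 mg/kg group stood apart from the other 4 livers of that group in several genes, which was seen in the values and not tested. Saa1, Fgb and Stat3 were higher in both than in any of the other 4, and Hp, Orm2 and Hamp were lower. Apcs, Saa2, Orm1 and Lcn2 did not separate them. The genes of C-reactive protein (Crp), the other fibrinogen chains (Fga and Fgg) and transferrin (Trf) were also higher in both than in the other 4. Their libraries held 8718439 and 10114871 counts, against 7381179 to 8538386 in the other 4. Hepatic stellate cell markers (8 genes) summed to 400.6 and 464.9 CPM in animals 55 and 56, against 202.7 to 255.4 CPM in the other 4 and 278.8 to 468.7 CPM in vehicle. Monocyte markers (5 genes, 3 of them tested) summed to 1413 and 1093 CPM in them, against 533.4 to 833.4 CPM in the other 4 and 1082 to 1295 CPM in vehicle. Nearly all of that sum was the gene Fn1, at 521.1 to 1403 CPM in the 6 mg/kg group and 1073 to 1284 CPM in vehicle. Plac8, another of the 5, read 7.73 to 15.5 CPM and 6.97 to 14.5 CPM in these groups. The part of either cell type in these values was not tested. Genes passing at 6 mg/kg against vehicle in edgeR (adjusted p under 0.05) numbered 363 with all libraries, 1029 without animal 55 and 1302 without animal 56. Members passing numbered 1 (Apcs) with all libraries and 2 (Apcs and Fgb) without either animal alone. The pair was not left out together, because it was picked by the values under test.

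Per kilobase of transcript, Hamp stood highest of the members with a median of 5137 CPM per kb over the 20 libraries. Hp followed at 2738, Orm1 at 1019, Fgb at 873.5 and Apcs at 174 CPM per kb. The other members were much lower, with Saa1 at 41.3, Saa2 at 27.1, Orm2 at 20.8, Lcn2 at 13.7 and Stat3 at 10.7 CPM per kb. Most neighbours in that order overlapped across libraries. The exceptions were Fgb (402.5 to 1076) above Apcs (94.6 to 217) and Apcs above Saa1 (8.91 to 77.4 CPM per kb), which did not overlap. Spread between mice also set the members apart. The highest library exceeded the lowest 10.7 times for Hamp, 8.68 times for Saa1 and 8.22 times for Saa2, but 2.29 times for Apcs and 1.97 times for Stat3. Some members have near-identical copies, and the handling of reads that map to both copies was not given in the sources used here. Transcripts of Saa1 and Saa2 were 94.4% identical, those of Orm1 and Orm2 91.0%, and those of Hamp and Hamp2 94.6%, so the split of counts within each pair is uncertain.

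**Figure D1:**
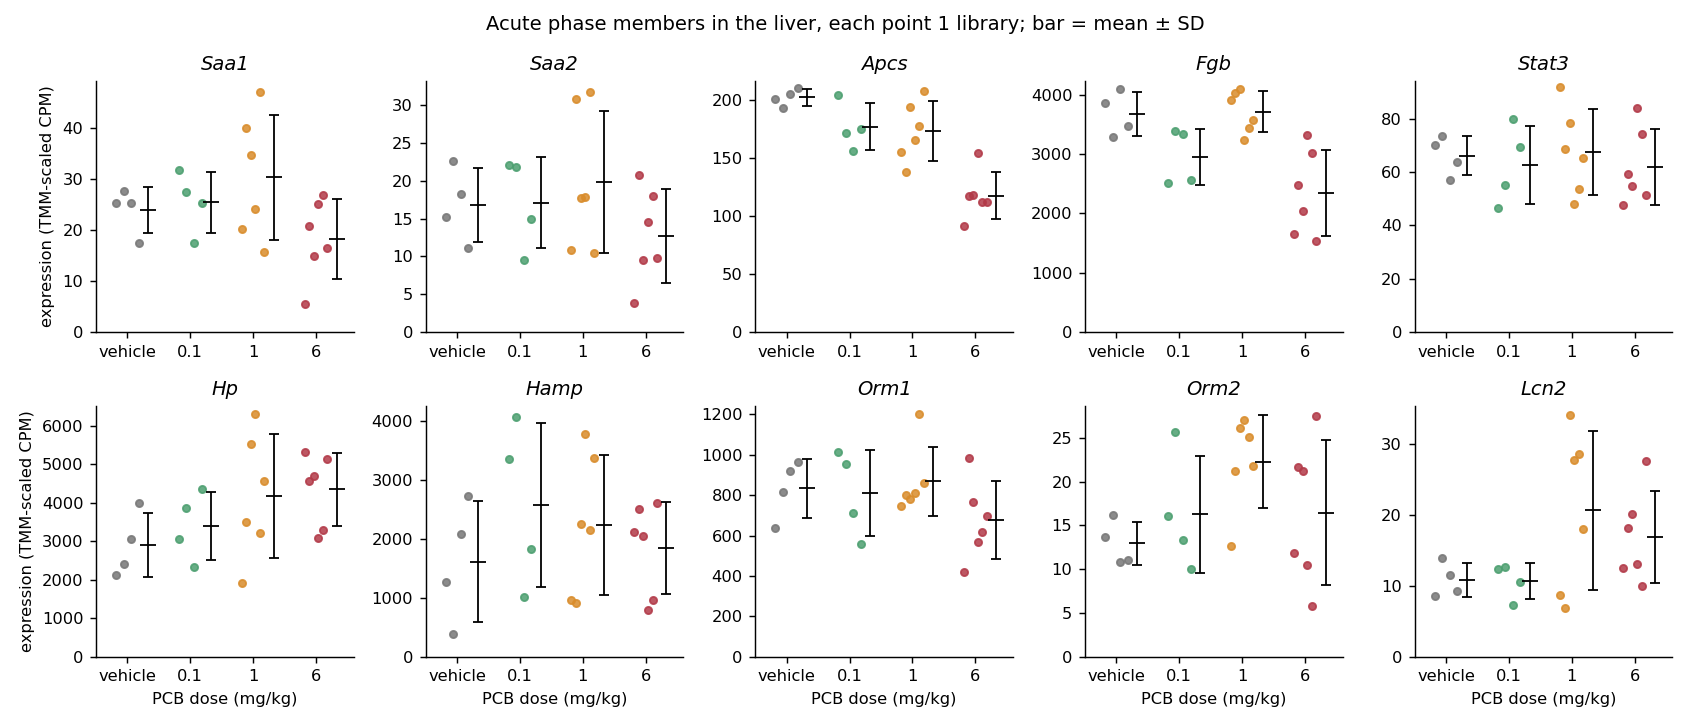
Level of each of the 10 members in every liver library (TMM-scaled CPM, vertical axis, from 0) by PCB dose in mg/kg (horizontal axis); points are libraries, and the bar beside each group is its mean and SD. The 6 Apcs points at 6 mg/kg all lie below the 4 vehicle points, whereas for each other member the 6 mg/kg and vehicle points overlap. Genes outside the members, among them Crp, Fgg and Serpinc1, also lay below all vehicle libraries. The share of all genes that separate in this way is not given here, so nothing particular to Apcs is read from it.

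Apcs was the member that changed at the highest dose, and it fell. The vehicle libraries held 201, 194, 205 and 211 CPM of Apcs. The 6 libraries of the 6 mg/kg group held 91.9, 118, 119, 155, 112 and 112 CPM. Each of these values lay below the lowest vehicle library, and the vehicle libraries differed little from each other. Mean Apcs fell to 118 ± 20.4 CPM (SD, n = 6) against 203 ± 7.29 CPM in vehicle (n = 4), a fitted ratio of 0.582. On the log2 scale the change was -0.78 (SE 0.15), with an edgeR quasi-likelihood adjusted p of 0.0134. In bulk tissue, fewer cells of a type and less RNA per cell cannot be told apart.

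Apcs levels at the lower doses lay between those extremes. At 0.1 mg/kg the libraries held 205, 172, 156 and 175 CPM. At 1 mg/kg they held 156, 138, 195, 166, 178 and 208 CPM. Both groups overlapped with vehicle, with log2 changes of -0.19 (SE 0.17) and -0.23 (SE 0.15), and edgeR adjusted p of 0.994 and 0.659. Over dose rank (vehicle, 0.1, 1 and 6 mg/kg taken as equal steps) Apcs fell by 0.24 per step on the log2 scale (SE 0.05, edgeR adjusted p = 0.0202), a call lost without animal 58 of the 6 mg/kg group (-0.23, edgeR adjusted p = 0.055). That call was also lost with a covariate for the balance of clock genes in each library, the clock index (-0.26, edgeR adjusted p = 0.337), an offset for GC content and length (-0.16, edgeR adjusted p = 0.0759) and a covariate for how each library's levels follow transcript GC content, the GC slope (-0.29, edgeR adjusted p = 0.234). Libraries at 6 mg/kg also lay below all 4 libraries at 0.1 mg/kg, with a log2 difference of -0.59 (SE 0.15) that did not pass in edgeR (adjusted p = 0.143) and passed in DESeq2 (adjusted p = 0.0104).

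Among the 10 members, 1 passed at 6 mg/kg against vehicle, where 2.8% of all genes tested passed, 1.8% as higher and 0.995% as lower. With 1 call among 10 genes, nothing particular to the members is read from the count. Unadjusted p was under 0.05 for 3 members (Apcs, Fgb and Hp), beside 24.2% of all genes. The median log2 change of the members was -0.20, and that of all genes was 0.02. Over dose rank 1 of 10 members passed, as lower, beside 4.81% of all genes in either direction and 1.96% as lower. Unadjusted p was under 0.05 there for 4 members, beside 25.4% of all genes.

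The call for Apcs rested on the fit and on single vehicle mice, while its size was steadier. Leaving out each library in turn gave log2 changes of -0.87 to -0.72, and the call was lost without vehicle animal 3 (edgeR adjusted p = 0.0656) or vehicle animal 4 (edgeR adjusted p = 0.0587). A fit on the vehicle and 6 mg/kg libraries alone gave -0.77 with an edgeR adjusted p of 0.0586.

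**Figure D2:**
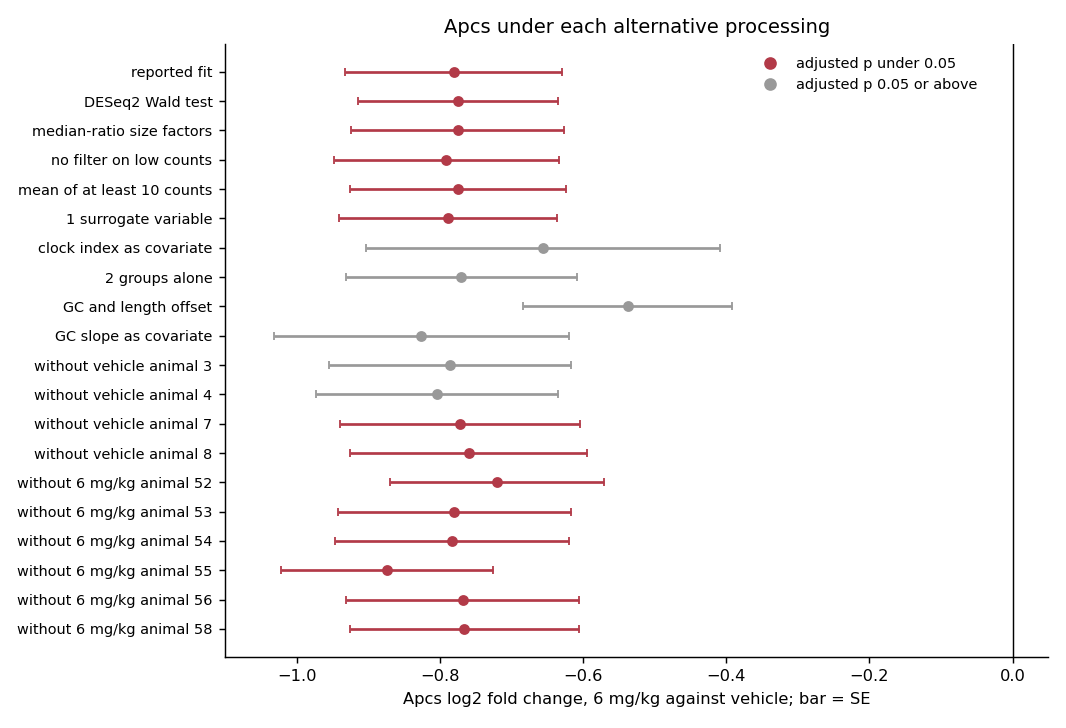
Apcs log2 fold change at 6 mg/kg against vehicle (horizontal axis) under the reported fit and each other processing (vertical axis); points are estimates, bars are 1 SE, and colour marks whether the adjusted p is under 0.05. All estimates are below 0, from -0.87 to -0.54, and 6 of the alternatives have an adjusted p at or above 0.05.

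Vehicle livers also differed from dosed livers in measures outside the acute phase genes. A clock index, the log2 level of Dbp minus that of Arntl (clock genes that peak at opposite times of day), was 2.05 to 5.45 in vehicle libraries, 6.17 to 7.98 at 0.1 mg/kg, 5.76 to 8.60 at 1 mg/kg and 6.58 to 8.48 at 6 mg/kg. No dosed library overlapped with vehicle in that index. A GC slope, taken for each library as the Spearman correlation, over genes, of its departure from the mean log2 CPM with transcript GC content, was -0.296 to -0.167 in vehicle and -0.03 to 0.249 at 6 mg/kg. Animals 55 and 56 had the lowest clock index (7.06 and 6.58) and the lowest GC slope (-0.03 and 0.086) of the 6 mg/kg livers, and the part of either measure in their values was not tested. Apcs at 43.8% GC and Fgb at 44.1% were the most AT-rich of the 10 members, and Hp at 56.2% was the most GC-rich. With the clock index as a covariate the Apcs value was -0.66 (SE 0.25, edgeR adjusted p = 0.9995). An offset for GC and length gave -0.54 (edgeR adjusted p = 0.0728), and the GC slope as a covariate gave -0.83 (edgeR adjusted p = 0.219). Both measures differ between the groups without overlap, so dose cannot be told apart from them in this comparison. Within dose groups, Apcs deviations had a Pearson r of -0.19 (Spearman rho -0.03) with the clock index and 0.10 (Spearman rho 0.11) with the GC slope over 20 libraries, with adjusted permutation p of 0.582 and 0.862 (Spearman 0.942 and 0.855). These were among 30 relations computed after seeing the data, none of which passed. Without the 2 farthest libraries the r values were -0.26 and -0.19.

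Crp, the other short pentraxin, fell at 6 mg/kg as well. Vehicle libraries held 437, 398, 426 and 345.5 CPM of Crp. The 6 mg/kg livers held 78.6, 166, 146, 312.5, 252 and 94.8 CPM. The groups did not overlap, and the log2 change was -1.20 (SE 0.28, edgeR adjusted p = 0.0293). Means at the doses between were 359 ± 37.3 (0.1 mg/kg, SD, n = 4) and 269 ± 65.3 CPM (1 mg/kg, SD, n = 6). Crp was the 1 gene that passed at 6 mg/kg among 32 other tested genes that rise in the acute phase, beside 2.8% of all genes. The call for Crp was lost without any 1 of vehicle animals 3, 4 and 7 or of 6 mg/kg animals 52, 54 and 58, with edgeR adjusted p of 0.0529 to 0.108 and log2 changes of -1.20 to -1.05. With the clock index as a covariate the Crp value was -0.63 and with the GC slope -0.80 (edgeR adjusted p = 0.9995 and 0.456).

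**Figure D3:**
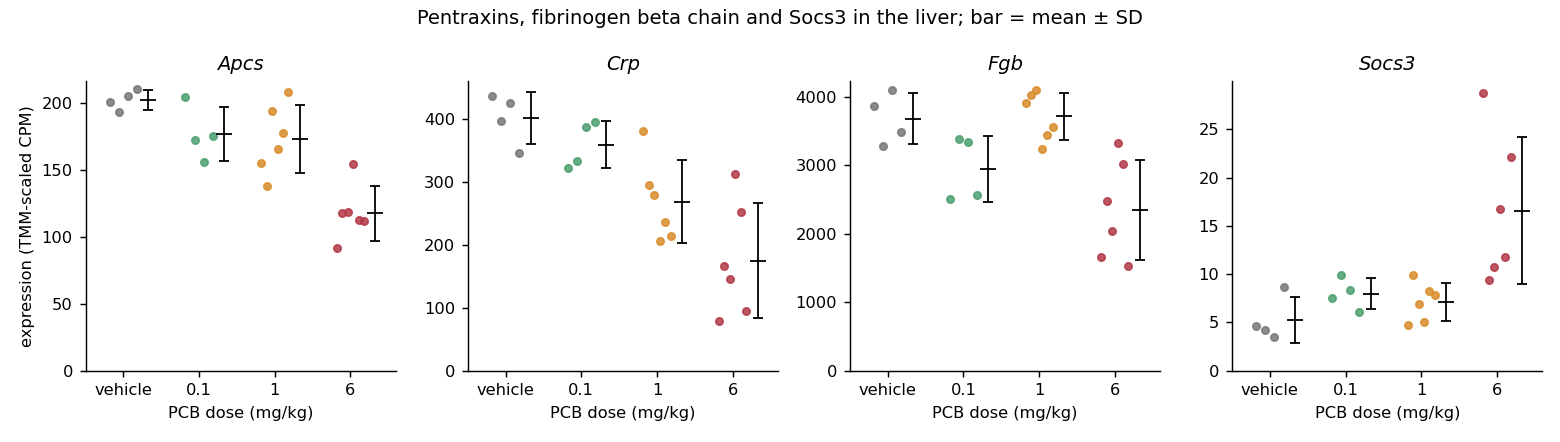
Levels of Apcs, Crp, Fgb and Socs3 in every liver library (TMM-scaled CPM, vertical axes from 0) by PCB dose in mg/kg (horizontal axes); points are libraries and bars are mean and SD. Apcs and Crp at 6 mg/kg lie below all vehicle points, Socs3 at 6 mg/kg lies above them, and Fgb at 6 mg/kg overlaps with vehicle at its upper end.

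Fgb encodes the beta chain of fibrinogen, the clotting protein that the liver assembles from 3 chains. Vehicle libraries held 3865, 3279, 4101 and 3479 CPM. The 6 mg/kg libraries held 1661, 2483, 2044, 3320, 3021 and 1533 CPM. Only animal 55, at 3320 CPM, reached the vehicle range. The log2 difference was -0.65 (SE 0.20) and did not pass (edgeR adjusted p = 0.0704). It passed in DESeq2 (adjusted p = 0.0174) and in edgeR without animal 55 (-0.78, adjusted p = 0.0243) or animal 56 (-0.74, adjusted p = 0.0307) of the 6 mg/kg group. These 2 animals had the highest Fgb of that group, so a larger fall follows from leaving out either. Among all genes 1029 and 1302 passed in those 2 fits, against 363 with all libraries.

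Levels of Fgb did not follow dose step by step. The mean was 3681 ± 371 CPM in vehicle (SD, n = 4), 2948 ± 478 at 0.1 mg/kg (SD, n = 4), 3713 ± 345 at 1 mg/kg (SD, n = 6) and 2344 ± 727 at 6 mg/kg (SD, n = 6). Its slope over dose rank was -0.17 (SE 0.08, edgeR adjusted p = 0.168). The other chains, Fga and Fgg, were picked out after their values were seen. Fgg averaged 3251 CPM in vehicle and 1576 CPM at 6 mg/kg without overlap, and its log2 difference of -1.05 (SE 0.31) did not pass (edgeR adjusted p = 0.0673) but passed in DESeq2 (adjusted p = 0.0202). Fga averaged 2376 CPM in vehicle, and the 6 mg/kg livers lay at separate levels, with 2201 and 1833 CPM in animals 55 and 56 and 210, 507, 355 and 229 CPM in animals 52, 53, 54 and 58. The groups overlapped, and the log2 difference of Fga was -1.42 (SE 0.60, edgeR adjusted p = 0.158). Fgg read 2752 and 2603 CPM in animals 55 and 56 and 724 to 1496 CPM in the other 4. With 1 surrogate variable both passed, Fga at -1.28 (edgeR adjusted p = 0.0319) and Fgg at -0.89 (edgeR adjusted p = 0.0238). Fgg also passed without animal 55 (-1.28, edgeR adjusted p = 0.0198) or animal 56 (-1.25, edgeR adjusted p = 0.0218) of the 6 mg/kg group, the livers of that group where it was highest.

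Saa1 and Saa2 encode the acute phase serum amyloids of high density lipoprotein, which climb from low levels when inflammation sets in. Both stayed low in all 20 livers, at 5.43 to 47.1 CPM for Saa1 and 3.86 to 31.8 CPM for Saa2. Saa1 read 25.3, 27.6, 25.3 and 17.4 CPM in vehicle. Saa1 at 6 mg/kg read 5.43, 20.9, 14.9, 25.1, 27.0 and 16.5 CPM. Animal 52 of the 6 mg/kg group was the lowest library for both genes, from 52 and 37 counts. The log2 differences at 6 mg/kg were -0.39 for Saa1 (SE 0.33) and -0.40 for Saa2 (SE 0.38), with edgeR adjusted p of 0.489 and 0.540. Leaving out each library in turn gave -0.53 to -0.20 for Saa1 and -0.59 to -0.21 for Saa2. At 1 mg/kg the log2 differences were 0.34 and 0.24, with edgeR adjusted p of 0.772 and 0.859, and libraries spread from 15.8 to 47.1 CPM for Saa1. The leave-out ranges there were 0.17 to 0.475 for Saa1 and 0.06 to 0.42 for Saa2. Saa3, a serum amyloid made largely by macrophages, averaged 2.56 CPM in vehicle and 4.38 CPM at 6 mg/kg (log2 difference 0.75, SE 0.48, edgeR adjusted p = 0.336). Saa4, the constitutive serum amyloid of liver, averaged 97.7 CPM in vehicle, 151 at 0.1 mg/kg, 175 at 1 mg/kg and 134 CPM at 6 mg/kg. Each dosed group lay above all vehicle libraries for Saa4, with log2 differences of 0.63, 0.84 and 0.45 (unadjusted p = 0.00388, 0.000126 and 0.0191) that did not pass in edgeR (adjusted p = 0.994, 0.171 and 0.134). In DESeq2 the difference at 1 mg/kg passed (0.84, adjusted p = 0.00391), and those at the other doses did not.

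Orm1 and Orm2 encode orosomucoids, plasma proteins that bind drugs and dampen inflammation. Orm1 read 638, 815.5, 920.1 and 966 CPM in vehicle and 420, 985, 769, 568, 619.8 and 696 CPM at 6 mg/kg. Groups overlapped, and the log2 difference was -0.30 (SE 0.22, edgeR adjusted p = 0.400). Orm2 lay far below Orm1. It read 13.7, 16.2, 10.9 and 11.1 CPM in vehicle and 12.6, 21.2, 26.1, 27.0, 25.1 and 21.8 CPM at 1 mg/kg. Only animal 41 of the 1 mg/kg group lay within the vehicle range for Orm2. The log2 difference at 1 mg/kg was 0.78 (SE 0.34), with an unadjusted edgeR p of 0.0305 and an adjusted p of 0.573. Orm2 at 6 mg/kg spread from 5.82 to 27.5 CPM with a log2 difference of 0.34 (SE 0.34, edgeR adjusted p = 0.557). Leaving out each library in turn gave 0.13 to 0.52.

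Lcn2 encodes lipocalin 2, which captures bacterial siderophores and is made by hepatocytes and neutrophils. Vehicle libraries read 8.62, 13.9, 11.5 and 9.29 CPM. At 1 mg/kg they read 8.66, 6.90, 34.0, 27.6, 28.5 and 18.01 CPM. Animals 45, 46, 48 and 50 lay above all vehicle libraries, while animals 41 and 42 did not. The 6 mg/kg libraries read 12.5, 18.1, 20.1, 13.1, 9.90 and 27.5 CPM. The log2 differences were 0.93 at 1 mg/kg (SE 0.37, unadjusted p = 0.0219, edgeR adjusted p = 0.562) and 0.64 at 6 mg/kg (SE 0.37, edgeR adjusted p = 0.294). Listed neutrophil markers summed to 2.91 to 4.22 CPM in vehicle, 3.88 to 5.24 CPM at 1 mg/kg and 2.43 to 15.1 CPM at 6 mg/kg, and their part in the Lcn2 values was not tested.

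Hp encodes haptoglobin, which binds free haemoglobin in plasma. Vehicle libraries read 2121, 2399, 3069 and 3993 CPM. In the 6 mg/kg group the values were 5325, 4576, 4695, 3083, 3282 and 5136 CPM. Of these, 4 lay above all vehicle libraries, while animals 55 and 56, at 3083 and 3282 CPM, did not, and the log2 difference of 0.59 (SE 0.28) had an unadjusted p of 0.048 and did not pass (edgeR adjusted p = 0.203). Group means were 2895 ± 833 CPM in vehicle (SD, n = 4), 3400 ± 888 at 0.1 mg/kg (SD, n = 4), 4177 ± 1606 at 1 mg/kg (SD, n = 6) and 4349 ± 947 at 6 mg/kg (SD, n = 6). The slope over dose rank was 0.20 (SE 0.09, unadjusted p = 0.0274, edgeR adjusted p = 0.146). With the clock index as a covariate the difference at 6 mg/kg was -0.06.

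Hamp encodes hepcidin, the hormone that blocks iron export through ferroportin, and takes input from both STAT3 and BMP receptors. Its level varied more between mice of 1 group than between groups. Vehicle libraries read 1261, 380.3, 2088 and 2735 CPM. At 0.1 mg/kg they read 3354, 4076, 1021 and 1835 CPM. Mice given 6 mg/kg had 2125, 2510, 2050, 790.4, 961 and 2615 CPM, the lowest values again in animals 55 and 56. All groups overlapped, and log2 differences from vehicle were 0.67 (SE 0.55) at 0.1 mg/kg, 0.47 (SE 0.51) at 1 mg/kg and 0.19 (SE 0.51) at 6 mg/kg, with edgeR adjusted p of 0.994, 0.795 and 0.850. The sign at 6 mg/kg turned to -0.14 without vehicle animal 4, the library with the lowest Hamp. Hamp2, its near-identical neighbour, averaged 2048 CPM over the 4 vehicle mice (SD 899) and 2106 CPM over the 6 mice of the highest dose (SD 1758).

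Of 31 other tested genes that set hepcidin through BMP signalling and iron, 1 passed at 6 mg/kg, beside 2.8% of all genes. Bmpr2, a type II BMP receptor, fell to 16.3 ± 3.25 CPM (SD, n = 6), against 27.3 ± 2.41 in vehicle (n = 4), with a log2 change of -0.74 (SE 0.18, edgeR adjusted p = 0.0346). That call was lost without any 1 of the 4 vehicle animals or of 6 mg/kg animals 52, 54 and 58 (log2 change -0.79 to -0.66, edgeR adjusted p 0.0671 to 0.13). With the clock index as a covariate the Bmpr2 value was -0.485 (edgeR adjusted p = 0.9995) and with the GC slope -0.37 (edgeR adjusted p = 0.570). Id1, a target of BMP signalling, averaged 19.0 CPM over 4 vehicle livers (SD 12.3) and 41.1 CPM over 6 livers of the highest dose (SD 17.6). Its log2 difference of 1.12 (SE 0.36) did not pass (edgeR adjusted p = 0.0842) but passed in DESeq2 (adjusted p = 0.0257) and in edgeR without vehicle animal 8 (1.65, adjusted p = 0.0313). The median log2 difference of these genes was -0.01, and 7 had an unadjusted p under 0.05, beside 24.2% of all genes.

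Stat3 encodes the transcription factor that carries the interleukin 6 signal. It read 46.7 to 91.8 CPM over 20 livers. Vehicle libraries read 70.2, 73.5, 56.9 and 63.7 CPM, and 6 mg/kg libraries read 47.8, 59.4, 54.9, 84.0, 74.1 and 51.4 CPM. The groups overlapped, with log2 differences of -0.09 at 6 mg/kg (SE 0.20), 0.03 at 1 mg/kg (SE 0.20) and -0.08 at 0.1 mg/kg (SE 0.22), and edgeR adjusted p of 0.803, 0.968 and 0.994. A level of mRNA does not report phosphorylation of the protein.

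Socs3, the feedback inhibitor of the receptor, rose at 6 mg/kg. Vehicle libraries read 4.65, 4.21, 3.48 and 8.70 CPM. Livers of the 6 mg/kg group read 28.7, 9.36, 10.7, 16.7, 11.8 and 22.2 CPM, all above vehicle. The log2 change was 1.66 (SE 0.32, edgeR adjusted p = 0.0134), and the call was lost without vehicle animal 3 (1.61, edgeR adjusted p = 0.0714) or vehicle animal 4 (1.57, edgeR adjusted p = 0.0787). With the clock index as a covariate it was 1.08 (edgeR adjusted p = 0.9995) and with the GC slope 1.31 (edgeR adjusted p = 0.328). Socs3 was the 1 gene of 45 tested in cytokine, STAT3 and NF-kB signalling that passed at 6 mg/kg in edgeR, beside 2.8% of all genes. In DESeq2, 2 of the 45 passed, beside 1138 of 12968 genes. The receptor subunits did not pass, with Il6ra at 32.4 and 19.8 CPM (log2 difference -0.72, SE 0.31, edgeR adjusted p = 0.162) and Il6st, which encodes gp130, at 70.04 and 69.75 CPM in vehicle and 6 mg/kg. The median log2 difference of the 45 genes was 0.19 beside 0.02 for all genes.

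The wider lists of acute phase proteins are read against all genes at 6 mg/kg, where 2.8% passed in edgeR, 24.2% had an unadjusted p under 0.05 and 1138 of 12968 passed in DESeq2. In edgeR, 0 of 32 other rising acute phase genes passed as higher and 1, Crp, as lower. In DESeq2, Mt1 and Vnn1 passed as higher and Crp and Fgg as lower. An unadjusted edgeR p under 0.05 was found for 9 of the 32, with log2 differences above 0 for Saa4, Lrg1, Il1rn, Mt1, Mt2 and Vnn1 and below 0 for Fga, Fgg and Crp. Vnn1, which encodes the pantetheinase vanin 1, averaged 54.8 CPM in vehicle and 137 CPM at 6 mg/kg without overlap (log2 difference 1.32, SE 0.41, edgeR adjusted p = 0.0779, DESeq2 adjusted p = 0.0164). Il1rn, which encodes the interleukin 1 receptor antagonist, averaged 2.81 and 6.19 CPM without overlap (1.14, SE 0.41, edgeR adjusted p = 0.105). Over dose rank Mt1, a metallothionein, rose by 0.68 per step (SE 0.18, edgeR adjusted p = 0.0354). Its mean was 80.9 CPM over 4 vehicle livers (SD 27.5) and 94.7 CPM over 4 livers at 0.1 mg/kg (SD 49.6). It was 287 CPM over 6 livers at 1 mg/kg (SD 175) and 271 CPM over 6 livers of the highest dose (SD 155). The rise thus did not go step by step. The Mt1 call was lost without any 1 of the 4 vehicle animals, animal 28 of the 0.1 mg/kg group or animals 52, 53 and 58 of the 6 mg/kg group (slope 0.61 to 0.72, edgeR adjusted p 0.0511 to 0.0872). It was also lost with 1 surrogate variable (slope 0.58), the clock index (0.71), the GC offset (0.55) and the GC slope (0.34), with edgeR adjusted p of 0.0821, 0.455, 0.0684 and 0.564, and when the slope was taken per mg/kg (edgeR adjusted p = 0.245). Of 17 genes that fall in the acute phase, 0 passed in edgeR, 4 had an unadjusted p under 0.05, and 1 passed in DESeq2. That gene was Serpinc1, which encodes antithrombin, whose mean was 3669 CPM over 4 vehicle livers (SD 320) and 2768 CPM over 6 livers of the highest dose (SD 489), with a log2 difference of -0.41 and an edgeR adjusted p of 0.124. Trf, the transferrin gene, had a log2 difference of -0.67 (edgeR adjusted p = 0.164), with 16340 and 16230 CPM in animals 55 and 56 and 4410 to 9533 CPM in the other livers of the 6 mg/kg group.

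Among macrophage markers, Clec4f of Kupffer cells rose to 121.8 CPM (SD 38.4, 6 mice) against 64.0 CPM in vehicle (SD 14.2, 4 mice), with a log2 change of 0.93 and an edgeR adjusted p of 0.0333. That call was lost without vehicle animal 3, 4 or 8 or animal 58 of the 6 mg/kg group (0.75 to 0.97, edgeR adjusted p 0.0854 to 0.13), and with the GC slope as a covariate the value was 0.27 (edgeR adjusted p = 0.715) and with the clock index 0.73 (edgeR adjusted p = 0.9995). Timd4, also of Kupffer cells, rose over dose rank by 0.31 per step (SE 0.08, edgeR adjusted p = 0.0407). Its mean was 3.85 CPM in vehicle (SD 0.478, 4 mice) and 7.67 CPM at the highest dose (SD 2.84, 6 mice). The Timd4 call was lost without any 1 of the 4 vehicle animals, animals 25 and 29 of the 0.1 mg/kg group or animals 52, 53, 54 and 58 of the 6 mg/kg group (slope 0.25 to 0.32, edgeR adjusted p 0.0503 to 0.118). It was also lost with no filter on low counts (0.30, edgeR adjusted p = 0.0513), with 1 surrogate variable (0.26, edgeR adjusted p = 0.0809), with the clock index (0.17) and the GC slope (0.12), and when the slope was taken per mg/kg (edgeR adjusted p = 0.0803). Of the 13 macrophage markers tested, 1 passed at 6 mg/kg in edgeR, as higher, beside 1.8% of all genes as higher. In DESeq2, 4 of the 13 passed, all as higher, and 1138 of 12968 genes passed in either direction. Together the 13 summed to 251 to 379 CPM in vehicle, 415 to 579 at 0.1 mg/kg, 339 to 663.5 at 1 mg/kg and 299 to 651 CPM at 6 mg/kg. The 0.1 mg/kg livers lay above all vehicle livers in that sum and in Clec4f (85.8 to 109 against 48.8 to 81.2 CPM). Median log2 differences of the 13 from vehicle were 0.49, 0.44 and 0.48 at 0.1, 1 and 6 mg/kg, so the rise was not particular to the highest dose. The part of these markers in the changes of Apcs, Crp and Socs3 was not tested.

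The lower doses gave no call among the members. At 1 mg/kg against vehicle 0 of 10 members passed in edgeR, beside 0% of all genes, and 0 passed in DESeq2, where 21 of all genes did. The 2 members Lcn2 and Orm2 had an unadjusted p under 0.05, beside 8.44% of all genes. Estimates were above 0 for 9 of the 10 and ran from -0.23 for Apcs to 0.93 for Lcn2, with a median of 0.29 beside 0.02 for all genes. At 0.1 mg/kg 0 of 10 passed in edgeR, beside 0.0154% of all genes, 0 had an unadjusted p under 0.05 (4.1% of all genes), and 0 passed in DESeq2. Estimates there ran from -0.32 for Fgb to 0.67 for Hamp. For 6 against 0.1 mg/kg 0 of 10 passed in edgeR, beside 0.0386% of all genes (0.0231% as lower), 1 had an unadjusted p under 0.05 (12.8% of all genes), and 1 passed in DESeq2 (148 of 12968 genes), in each case Apcs. The 3 comparisons with vehicle share the same 4 vehicle libraries.

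**Figure D4:**
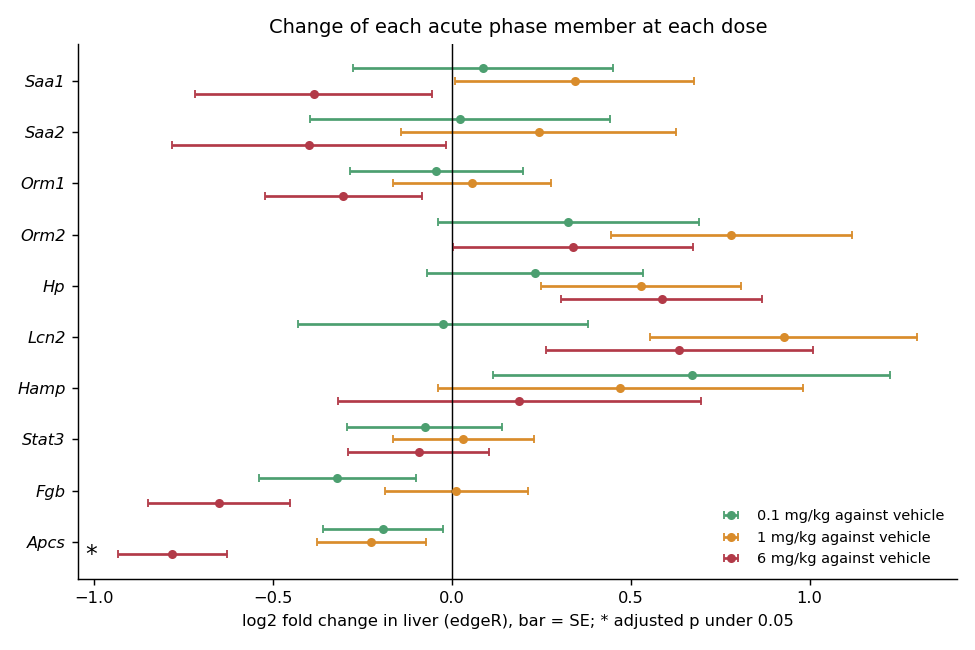
Log2 fold change of each member against vehicle (horizontal axis) at 0.1, 1 and 6 mg/kg; points are edgeR estimates, bars are 1 SE, and the asterisk marks an adjusted p under 0.05. Apcs at 6 mg/kg, at -0.78, carries the 1 asterisk, and Lcn2 at 1 mg/kg, at 0.93, is the farthest estimate from 0 without one.

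Some pairs of members varied together between mice of the same dose group. Deviations of log2 CPM from the group mean were compared over 20 libraries for 45 pairs, and 5 pairs, 4 positive and 1 negative, passed a two-sided permutation test after adjustment over the 45. Saa1 and Saa2 varied most closely, with a Pearson r of 0.94 (adjusted permutation p = 0.0009) and a Spearman rho of 0.91 (adjusted permutation p = 0.0009). Their near-identical transcripts can share reads. Orm2 and Lcn2 had an r of 0.66 (adjusted permutation p = 0.00555) and a rho of 0.76 (adjusted permutation p = 0.00428). Hp and Hamp had an r of 0.71 (adjusted permutation p = 0.0122) and a rho of 0.72 (adjusted permutation p = 0.0239). Hamp and Stat3 moved in opposite directions, with an r of -0.74 (adjusted permutation p = 0.00555) and a rho of -0.70 (adjusted permutation p = 0.0216). Fgb and Stat3 had an r of 0.64 (adjusted permutation p = 0.0415), which did not pass by rank (rho 0.61, adjusted permutation p = 0.132). Animals 55 and 56 were the lowest of the 6 mg/kg livers in Hp, Orm2 and Hamp and the highest in Fgb and Stat3. The part of these animals in the pairs was not tested.

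Each relation was repeated without the 2 libraries farthest from the median of the first gene. Saa1 with Saa2 (r = 0.90) and Hamp with Stat3 (r = -0.74) still passed. Orm2 with Lcn2 (r = 0.59), Hp with Hamp (r = 0.66) and Fgb with Stat3 (r = 0.56) no longer passed, with adjusted permutation p of 0.0575, 0.0575 and 0.163. Whether these 3 rest on those libraries in particular or on the smaller number of libraries (18) was not tested. Apcs passed with no other member. Hamp deviations also had an r of -0.58 (rho -0.64) with the log2 total count of the library, with adjusted permutation p of 0.191 (rho 0.112).

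**Figure D5:**
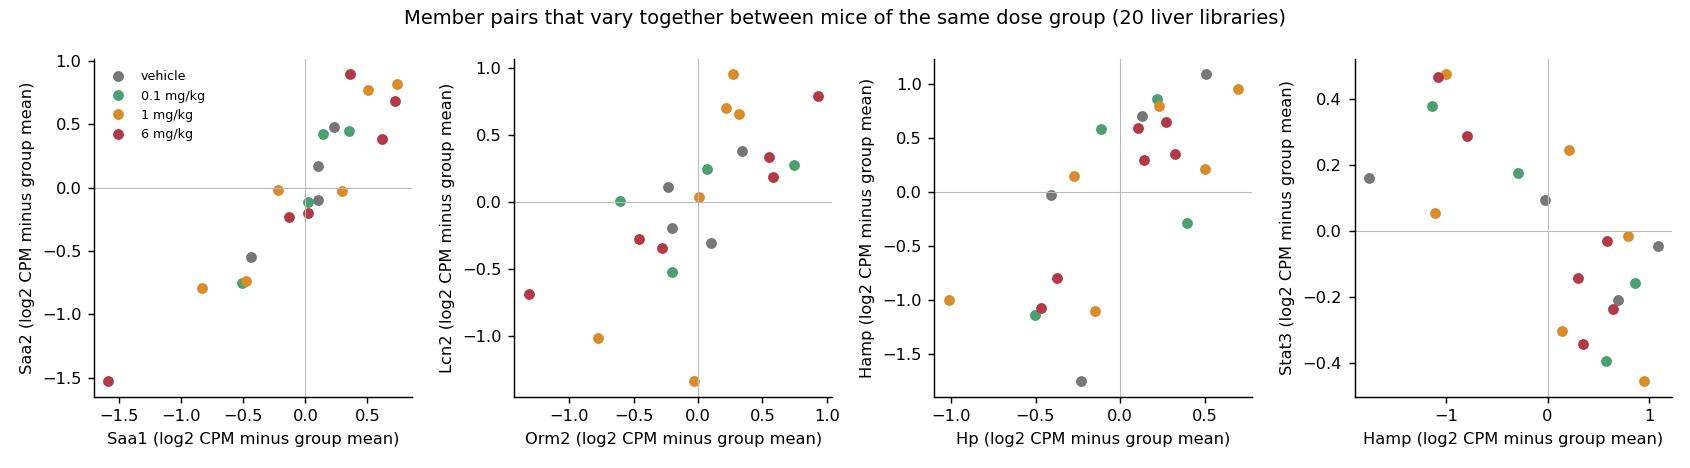
Deviation of log2 CPM from the dose group mean for 4 pairs of members (both axes) in 20 liver libraries; each point is 1 library, coloured by dose. Saa1 with Saa2, Orm2 with Lcn2 and Hp with Hamp slope upward (r = 0.94, 0.66 and 0.71), and Hamp with Stat3 slopes downward (r = -0.74).

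Across the 12958 other tested genes, the pattern most like that of Stat3 over the 20 livers belonged to Eif4ebp2 (Pearson r = 0.93, Spearman rho = 0.91), followed by Slc25a23 (r = 0.91, rho = 0.91) and Kif1c (r = 0.89, rho = 0.88). Hamp was most like Mamdc4 (r = 0.88, rho = 0.79), Mcee (r = 0.84, rho = 0.76) and Kng1 (r = 0.84, rho = 0.85), of which Kng1 encodes kininogen. Saa1 was most like Mrpl47 (r = 0.83, rho = 0.69), Emc8 (r = 0.82, rho = 0.67) and Yif1a (r = 0.79, rho = 0.70). These values are descriptions over libraries that share dose groups and composition, picked as the highest of many, and carry no p.

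In the brain regions, of the members analysed there, Stat3 alone passed the filter on low counts and was tested. Prefrontal cortex and striatum had 21 libraries each. Saa1 and Saa2 read 0 to 0.354 and 0 to 0.329 CPM in striatum. Hp read 0 to 0.731 CPM in prefrontal cortex and 0.095 to 1.32 CPM in striatum, and Lcn2 read at most 0.448 CPM in either region. Saa1 and Saa2 in prefrontal cortex, and Orm1, Orm2, Fgb, Apcs and Hamp in both regions, were not analysed here. Stat3 read 44.7 to 63.4 CPM in prefrontal cortex and 55.6 to 78.2 CPM in striatum. At 6 mg/kg its log2 difference from vehicle was -0.15 in prefrontal cortex (SE 0.08, unadjusted p = 0.0945, edgeR adjusted p = 0.617) and -0.14 in striatum (SE 0.08, unadjusted p = 0.108, edgeR adjusted p = 0.409). Of 14838 and 15118 genes tested, 0 passed in edgeR in either region (0%), unadjusted p was under 0.05 for 9.27% and 15.7%, and 27 and 26 passed in DESeq2.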

How the data were processed

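RNA of liver (20 libraries), prefrontal cortex and striatum (21 each) was sequenced. The authors deposited whole-number read counts per Entrez gene, 1 table per tissue. FastQC, HISAT2 and genome build mm10 are named in the submitters' processing notes; the counting program, strand setting and treatment of multiply mapped reads were not given in the sources used here. The labels name poly(A) capture or rRNA removal without saying which. Every listed liver gene had at least 10 counts in all. Gene symbols and coordinates came from RefSeq (GRCm38.p6) by Entrez identifier (99.95% of liver genes matched), and transcript lengths and GC from GENCODE.

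Counts were tested per tissue in 1 fit over all dose groups with edgeR 4.0.16 in R 4.3.3 (filterByExpr, TMM scaling, robust quasi-likelihood F test). Benjamini-Hochberg adjustment ran over all tested genes, and a gene passed at an adjusted p under 0.05. Log2 CPM values carried a prior count of 2. The procedure was tested on simulated data. DESeq2 1.42.0, sva 3.50.0, other scalings, filters and covariates, and leaving out each library were alternatives, and the GC offset and GC slope were added after seeing the data. Correlations used 100000 permutations within dose groups (SciPy 1.17.1). No replicate pair in liver agreed within sampling noise (chi-square per degree of freedom at least 12.9).

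The members, lists and tests were chosen with earlier results of these data known. All members were named, with, from each of the other 4 pathway lists, genes that passed at 6 mg/kg or over dose rank and, where fewer than 2 passed, the 2 of smallest p in either, of which 1 gene is not reported here; Fga, Fgg, Il6ra, Il6st, Saa3, Saa4, Vnn1, Il1rn, Hamp2 and the cell type markers were named after their values were seen. The edgeR and DESeq2 p-values set a difference against the spread between these animals, and the correlation p-values come from the permutations.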

Additional observations from a re-analysis of the deposited data

Results flagged for a closer look

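In 1 of 40 groups of liver libraries checked over the 10 members, a single library stood far from the others. Orm1 in animal 48 of the 1 mg/kg group read 1204 CPM, while the other 5 libraries of that group read 749 to 862 CPM. The gap to the nearest library was 0.751 of the range of the group, against a 95% critical value of 0.625 for 6 libraries. Chance alone would flag about 1 in 20 groups, or 2 of the 40. Without that library the Orm1 log2 difference at 1 mg/kg against vehicle went from 0.06 to -0.06, and it did not pass with or without it (edgeR adjusted p = 0.949 in both).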

How the results depend on the processing

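No paired analysis was possible because the dose groups within a tissue share no animal numbers. Members passing at 6 mg/kg against vehicle numbered 1 in the reported fit, 2 in DESeq2 (Apcs and Fgb), 0 with the clock index as a covariate, 0 when only the compared groups were fitted, 0 with the offset for GC and length and 0 with the GC slope as a covariate, the last 2 chosen after seeing the data. Leaving out each library gave 0 to 2. The count stayed at 1 with median-ratio size factors, no filter, a mean of at least 10 counts and 1 surrogate variable. For 6 against 0.1 mg/kg the count was 0 and rose to 1 in DESeq2. Over dose rank it was 1, and 0 with the clock index, the GC offset or the GC slope; leaving out each library gave 0 to 1, the 0 without animal 58 of the 6 mg/kg group (Apcs edgeR adjusted p = 0.055). Correlated pairs numbered 5, with 11 when group means were kept and 2 without the 2 farthest libraries.

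All genes passing at 6 mg/kg numbered 363 in the reported fit, 1138 in DESeq2, 241 without a filter, 13 with only the compared groups, 122 with the GC offset, 1 with the GC slope and 0 with the clock index, and 3 to 1302 when each library was left out. The cause was not tested.

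Signs that turned belonged to members that did not pass. At 6 mg/kg, 1 surrogate variable gave -0.036 for Orm2, -0.36 for Hamp and 0.065 for Stat3. The clock index gave -0.06 for Hp, -0.20 for Orm2, -1.03 for Hamp and 0.37 for Stat3. The GC slope gave -0.29 for Orm2, -0.40 for Hamp and 0.05 for Stat3. At 1 mg/kg the clock index gave -0.091 for Hp, -0.33 for Orm1 and -0.65 for Hamp, the GC offset -0.027 for Saa2 and -0.02 for Orm1, and the GC slope -0.017 for Orm1. Over dose rank the GC slope gave -0.001 for Hp. Leaving out each library gave -0.14 to 0.57 for Hamp at 6 mg/kg and, at 1 mg/kg, -0.06 to 0.13 for Orm1, -0.04 to 0.065 for Fgb and -0.076 to 0.11 for Stat3. Crp, Bmpr2, Socs3 and Clec4f lost their calls at 6 mg/kg with the clock index, with only the compared groups and with the GC slope, and Crp and Bmpr2 also with the GC offset. With only the compared groups their values were -1.19, -0.73, 1.68 and 0.94, and with the GC offset Crp was -0.97 and Bmpr2 -0.66. With 4 to 6 mice a group, the SE of the log2 difference at 6 mg/kg was 0.33 for Saa1, 0.38 for Saa2 (37 to 320 counts a library), 0.37 for Lcn2 and 0.51 for Hamp.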
